A study of Mus musculus with 12 samples.

Results

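Cholesterol synthesis and INSIG feedback genes were followed in MLO-Y4 cells, a mouse osteocyte-like line, cultured for 48 h inside a superconducting magnet whose strong field has a steep gradient (LG-HMF). The 8 genes were chosen by name and function, as enzymes or regulators of cholesterol synthesis. No rule on their values was used, but earlier results of these data were known. Each has a transcript cluster (the probe group that reads 1 gene) among the 19938 genes with 1 symbol on the Affymetrix Mouse Gene 1.0 ST array. They are the enzymes Hmgcs1, Idi1, Fdft1, Sqle and Cyp51, the transcription factor gene Srebf2, and the feedback genes Insig1 and Insig2. The magnet offers 3 positions, at which the magnetic force on the cells opposes gravity (μ-g), is nil (1-g) or adds to gravity (2-g). The control cells were kept outside the magnet at normal gravity. The μ-g and 2-g positions share a field strength with opposite gradients and the 1-g position lies where the field is strongest, so field strength and apparent gravity cannot be told apart between 1-g and the other positions. Each group, μ-g, 1-g, 2-g and control, has 3 arrays of this single line with no other treatment named, and the labels call the replicates biological without saying whether they were separate cultures, so p-values measure the spread between these samples. Set 1 compares μ-g with control. Set 2 compares 2-g with control. In set 3 the 1-g cells are set against control, and in set 4 the μ-g cells against the 2-g cells. Further comparisons are μ-g v.s. 1-g, as well as 2-g v.s. 1-g. They ask whether the field, the apparent gravity or both go with a change of expression. Sets 1, 2 and 3 share the control arrays, and the other comparisons share magnet arrays with them.

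As background, cells build cholesterol from acetyl-CoA through the mevalonate pathway, squalene and lanosterol, and several of the late steps consume molecular oxygen. The genes of these enzymes are driven by SREBP-2, the product of Srebf2, which is held in the endoplasmic reticulum by SCAP bound to an INSIG protein when sterols are plentiful and is carried to the Golgi and cut free when they are scarce. The INSIG proteins also bring ubiquitin ligases to sterol synthesis proteins, which are then degraded. Insig1 is itself a target of SREBP, whereas Insig2 is much less dependent on it and has been described in mouse liver as a gene that hypoxia-inducible factors can switch on.

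The promoters looked at differed in their matches to sequence elements of that circuit. RefSeq promoters (build GRCm38.p6, 250 bases before to 50 bases after a start) were held for 6 of the 8 genes, Hmgcs1, Idi1, Cyp51, Srebf2, Insig1 and Insig2. The motifs searched, on both strands, were the sterol regulatory element TCACNCCAC, which 1.24% of 32851 promoters hold, the hypoxia response cores ACGTG (19.6%) and GCGTG (32.4%), and the NF-Y box CCAAT (37.4%). These motifs do not contain each other, but a CACGTG is read as ACGTG on both strands. The promoters printed are those of the first enzyme and of the INSIG pair on which the results turn, with matches to the sterol element and the hypoxia cores in capitals. Hmgcs1 lies at chr13:119690101-119690400 on the plus strand, Insig1 at chr5:28071162-28071461 on the plus strand, and the second of the 3 Insig2 starts, shown because it holds the most hypoxia core matches of the 3, at chr1:121327975-121328274 on the minus strand.
Hmgcs1: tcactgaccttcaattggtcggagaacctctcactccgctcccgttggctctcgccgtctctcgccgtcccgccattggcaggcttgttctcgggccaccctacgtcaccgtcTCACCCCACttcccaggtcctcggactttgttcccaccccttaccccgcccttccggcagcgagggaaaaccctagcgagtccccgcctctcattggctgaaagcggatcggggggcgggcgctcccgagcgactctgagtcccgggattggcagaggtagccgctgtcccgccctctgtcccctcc
Insig1: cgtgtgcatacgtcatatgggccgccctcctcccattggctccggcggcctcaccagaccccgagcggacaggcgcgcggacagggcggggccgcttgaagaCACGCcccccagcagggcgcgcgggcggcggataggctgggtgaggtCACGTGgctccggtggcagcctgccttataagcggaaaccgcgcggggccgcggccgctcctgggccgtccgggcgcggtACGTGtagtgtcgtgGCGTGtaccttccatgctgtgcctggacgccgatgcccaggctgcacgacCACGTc
Insig2: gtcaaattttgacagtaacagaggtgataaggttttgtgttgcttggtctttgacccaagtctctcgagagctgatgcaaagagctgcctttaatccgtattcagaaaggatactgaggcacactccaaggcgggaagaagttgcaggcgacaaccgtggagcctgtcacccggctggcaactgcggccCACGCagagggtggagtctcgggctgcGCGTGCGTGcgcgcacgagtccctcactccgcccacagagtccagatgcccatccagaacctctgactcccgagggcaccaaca

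The Hmgcs1 promoter holds 1 sterol element, TCACCCCAC, beginning 137 bases before the start, with 4 NF-Y boxes. It is the promoter among those of the 6 genes with a match to that element. Insig1 holds 4 matches to ACGTG, a pair of them from a CACGTG 101 bases before the start, with 2 matches to GCGTG and 1 NF-Y box. The Insig2 start shown holds 3 matches to GCGTG, the third start holds 1, and the first holds 3 NF-Y boxes and no hypoxia core. Idi1 holds 1 GCGTG with 2 NF-Y boxes, Cyp51 2 GCGTG with 1 NF-Y box, and Srebf2 1 NF-Y box. A match describes these letters in this window and is no evidence of binding. The lack of a match to the pattern searched does not show that a gene has no such element.

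The INSIG pair gave the 2 calls of the fit. Insig2 rose in set 2 and Insig1 was higher at μ-g than at 2-g, each by less than 1.3-fold, and neither gene was called in the other's comparison. Values are the deposited log2 values of the RMA normalization, differences are on the same log2 scale with the SE and 95% interval of limma, and a gene is called at an adjusted p of limma under 0.05 (Benjamini-Hochberg over the 19938 genes).

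Insig2, the INSIG gene that depends little on SREBP, was highest at 2-g. It read 11.70, 11.82 and 11.86 at 2-g, against 11.37, 11.60 and 11.47 in control. The 3 arrays at 2-g lay above all 3 control arrays, and the closest were replicate 1 at 2-g and control replicate 2. The difference in set 2 was 0.32 (1.245-fold, SE 0.0719, 95% interval 0.16 to 0.47, adjusted p of limma 0.0363, n = 3 each). In set 2, 3.11% of all genes passed, and Insig2 was the 1 gene of the 8.
Insig2 read 11.61, 11.70 and 11.67 at μ-g and 11.43, 11.61 and 11.62 at 1-g. The μ-g arrays lay above the control arrays too, whereas the 1-g arrays overlapped them. In set 4 Insig2 was lower at μ-g than at 2-g by -0.14, without a call (adjusted p of limma 0.370). Its arrays there only just missed an overlap, with 11.701 for 2-g replicate 1 and 11.695 for μ-g replicate 2. Its differences from control, 0.18 at μ-g (adjusted p of limma 0.279) and 0.07 at 1-g (0.791), were not called. In order of the group means Insig2 ran 2-g at 11.79 ± 0.08, μ-g at 11.66 ± 0.04, 1-g at 11.55 ± 0.11 and control at 11.48 ± 0.12 (SD, n = 3), and no neighbours in that order differed by a called amount.

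The Insig2 call in set 2 was lost without any of 6 of the 12 arrays in turn, μ-g replicate 1, μ-g replicate 3, 2-g replicate 2, 2-g replicate 3, control replicate 1 or control replicate 3, and its adjusted p of limma without 1 array ran from 0.0236 to 0.153. It was also lost in a fit to the 6 arrays of 2-g and control alone (0.0894). With the replicate number as a block, which fits a shift common to arrays of the same number, the adjusted p of limma was 0.00349 and stayed called without each of the 12 arrays (0.00498 to 0.0275). Over all 21 alternatives its difference kept its sign, from 0.26 to 0.38, with adjusted p from 0.00349 to 0.153.

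Insig1, the INSIG gene that SREBP itself drives, was high at μ-g and 1-g and low at 2-g and control. It read 11.55, 11.55 and 11.48 at μ-g and 11.42, 11.52 and 11.57 at 1-g. At 2-g it read 11.11, 11.28 and 11.29, and in control 11.12, 11.35 and 11.23. The lowest array of the first pair of groups, replicate 1 at 1-g, lay above the highest of the second pair, control replicate 2. In set 4 Insig1 was higher at μ-g than at 2-g by 0.30 (1.229-fold, SE 0.0693, 95% interval 0.15 to 0.45, adjusted p of limma 0.0427, n = 3 each), and 2.88% of all genes passed there. With the replicate number as a block its adjusted p of limma was 0.00966. The other differences of that kind were of like size and missed the threshold without the block, 0.29 in set 1 (adjusted p of limma 0.0787), 0.27 in set 3 (0.148) and -0.27 in 2-g v.s. 1-g (0.0665). With the block the difference in set 3 passed (0.0432), as did that in 2-g v.s. 1-g (0.0163). Insig1 differed between 2-g and control by -0.0047 in set 2 (95% interval -0.16 to 0.15) and between μ-g and 1-g by 0.02 (95% interval -0.13 to 0.17).

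The Insig1 call in set 4 was lost without any of 9 of the 12 arrays in turn, all except 1-g replicate 1, control replicate 1 and control replicate 2, with adjusted p of limma from 0.0340 to 0.156. It was also lost in a fit to the 6 arrays of μ-g and 2-g alone (0.0686) and after quantile normalization (0.0523). With the block it stayed called without each of the 12 arrays (0.0117 to 0.0477), whereas the blocked call in set 3 was lost without 10 of 12, all except μ-g replicate 1 and μ-g replicate 3, and that in 2-g v.s. 1-g without 1-g replicate 1, 1-g replicate 3, 2-g replicate 1 or 2-g replicate 2. Over all 21 alternatives the set 4 difference ran from 0.24 to 0.33, with adjusted p from 0.00966 to 0.156. In the F test over the 4 groups, in which 3.15% of all genes passed, Insig1 was the 1 gene of the 8 called (adjusted p of limma 0.0383), and Insig2 gave 0.0893.

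The balance of the pair set 2-g apart from the other groups. This quantity, the change of Insig2 from its control mean minus that of Insig1 on the same array, was chosen after the values were seen and is given without a test. It was 0.34, 0.30 and 0.32 at 2-g, -0.18, -0.10 and -0.06 at μ-g, -0.24, -0.15 and -0.19 at 1-g and 0.01, 0.00 and -0.01 in control. The 2-g arrays lay above those of every other group, the μ-g and 1-g arrays lay below 0 and overlapped, and the control arrays lay within 0.01 of 0. The spread within groups, 0.02 at 2-g, 0.06 at μ-g, 0.04 at 1-g and 0.008 in control (SD, n = 3), was narrower than that of Insig2 alone at 2-g (0.08), 1-g (0.11) and control (0.12) but not at μ-g (0.04). At μ-g it was also wider than that of Insig1 alone (0.04).

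**Figure D1:**
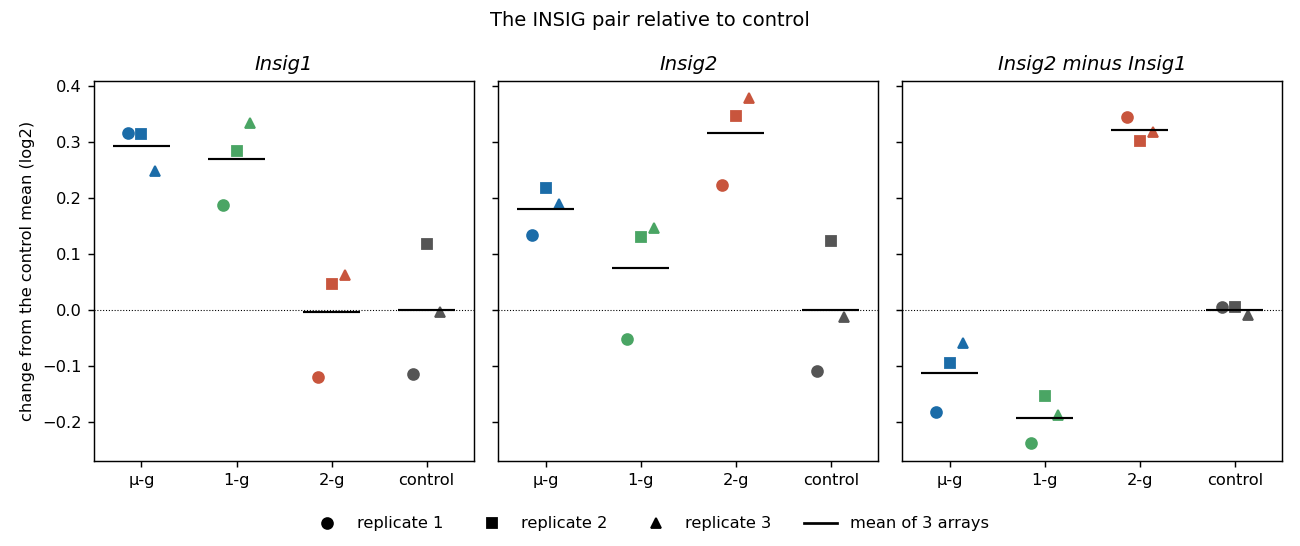
Change of Insig1, of Insig2 and of Insig2 minus Insig1 from the control mean (vertical axis, log2) on each array of the μ-g, 1-g, 2-g and control groups (horizontal axis), with the replicate number as the marker shape and a bar at the mean of 3 arrays. Insig1 was high at μ-g and 1-g, Insig2 was highest at 2-g, and the difference lay between 0.30 and 0.34 on the 2-g arrays.

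The 5 enzymes were higher at μ-g and 1-g than at 2-g in every mean, and no difference was called without the block. Hmgcs1, the synthase that makes HMG-CoA at the head of the pathway, read 10.53, 10.60 and 10.62 at μ-g and 10.28, 10.60 and 10.63 at 1-g. It read 10.22, 10.40 and 10.40 at 2-g, and 10.08, 10.39 and 10.46 in control. The μ-g arrays lay above those of 2-g and of control, and the 1-g arrays overlapped both because replicate 1 was low. Hmgcs1 differed by 0.27 in set 1 (95% interval 0.04 to 0.51, adjusted p of limma 0.275), by 0.24 in set 4 (0.280, and 0.0302 with the block) and by 0.03 in set 2 (95% interval -0.21 to 0.27). Its blocked call in set 4 was lost without μ-g replicate 1 or any 1 of the 2-g arrays (0.0637 to 0.129).

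Idi1, which interconverts the isoprene units that are joined to longer chains, read 10.96, 11.15 and 11.11 at μ-g and 10.86, 11.13 and 11.21 at 1-g. It read 10.63, 10.89 and 10.92 at 2-g, and 10.64, 10.96 and 11.02 in control. Replicate 1 was the lowest array of each group, and the μ-g arrays lay above those of 2-g. The difference in set 4 was 0.26 (95% interval 0.00 to 0.51, adjusted p of limma 0.291, and 0.0104 with the block), and that in 2-g v.s. 1-g was -0.25 (0.341, and 0.0131 with the block). The blocked call in set 4 was lost without μ-g replicate 1 (0.0555), and that in 2-g v.s. 1-g without 1-g replicate 3, 2-g replicate 2 or 2-g replicate 3. Without 2-g replicate 1 these differences were 0.17 and -0.16.

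Fdft1, squalene synthase, the first step committed to sterols, read 11.81, 12.17 and 11.80 at μ-g and 11.88, 12.22 and 12.05 at 1-g. It read 11.55, 11.97 and 11.74 at 2-g, and 11.72, 12.09 and 11.94 in control. Replicate 2 was the highest array in every group, and the groups overlapped. Its largest difference was -0.30 in 2-g v.s. 1-g (95% interval -0.60 to -0.00, adjusted p of limma 0.321, and 0.00740 with the block, under which it stayed called without each of the 12 arrays). Without 2-g replicate 1 that difference was -0.20. In set 1 it differed by 0.01 (95% interval -0.28 to 0.31).

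Sqle, squalene epoxidase, an oxygen-consuming step, read 11.37, 11.33 and 11.27 at μ-g and 11.25, 11.42 and 11.31 at 1-g. It read 11.09, 11.33 and 11.27 at 2-g, and 11.03, 11.35 and 11.24 in control. The groups overlapped in every comparison. Sqle was called in no comparison with or without the block, and its differences ran between -0.10 in 2-g v.s. 1-g (95% interval -0.28 to 0.09) and 0.12 in set 3 (95% interval -0.06 to 0.31).

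Cyp51, the lanosterol demethylase and also an oxygen-consuming enzyme, had the largest difference of the 8 genes and the widest spread. It read 9.75, 9.95 and 9.81 at μ-g and 9.57, 9.98 and 9.89 at 1-g. It read 9.17, 9.74 and 9.58 at 2-g, and 9.33, 9.88 and 9.85 in control. The μ-g arrays lay just above the 2-g arrays, and the 1-g arrays overlapped them. In set 4 the difference was 0.34 (1.268-fold, 95% interval -0.02 to 0.71, adjusted p of limma 0.330, and 0.0194 with the block), and in 2-g v.s. 1-g it was -0.32 (0.417, and 0.0304 with the block). Without 2-g replicate 1 these differences were 0.18 and -0.15, and without 2-g replicate 2 they were 0.47 and -0.44. The blocked call in set 4 was lost without μ-g replicate 1, 2-g replicate 1 or 2-g replicate 3, and that in 2-g v.s. 1-g without any 1 of the 1-g or 2-g arrays.

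Srebf2, whose product drives the enzymes, had the smallest residual SD of the 8 genes without the block, but not with it. It read 11.16, 11.11 and 11.15 at μ-g and 11.12, 11.10 and 11.16 at 1-g. It read 11.03, 11.03 and 11.15 at 2-g, and 10.90, 11.06 and 11.06 in control. The μ-g and 1-g arrays lay above the control arrays and overlapped those at 2-g. Srebf2 was called in no comparison with or without the block, with 0.13 in set 1 (95% interval 0.01 to 0.25, adjusted p of limma 0.302) and 0.12 in set 3 (95% interval -0.00 to 0.24, adjusted p of limma 0.476).

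**Figure D2:**
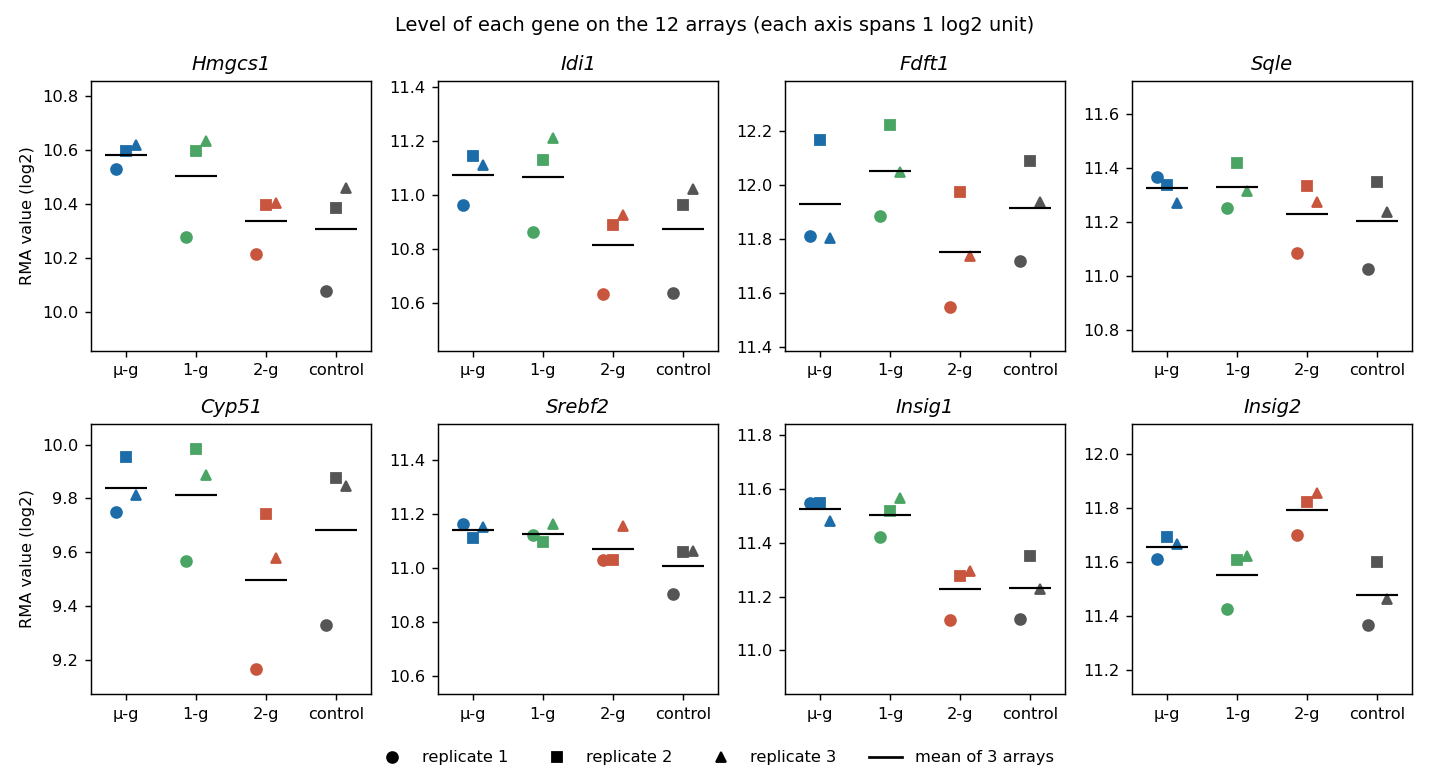
Deposited log2 value of each of the 8 genes (vertical axis, each panel spanning 1 log2 unit) on the 12 arrays of the μ-g, 1-g, 2-g and control groups (horizontal axis), with the replicate number as the marker shape and a bar at the mean. The enzymes and Insig1 were lower at 2-g than at μ-g in their means, Insig2 was highest at 2-g, and the replicate 1 array was the lowest of its group in 27 of 32 cases.

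Counted over the comparisons, the 8 genes gave few calls at the background of this fit. In set 1, 0.823% of all genes passed and 0 of the 8, in set 3, 0.321% and 0 of the 8, in μ-g v.s. 1-g, 0% and 0 of the 8, and in 2-g v.s. 1-g, 2.26% and 0 of the 8. At an unadjusted p of limma under 0.05 those that passed in these comparisons were Hmgcs1, Srebf2, Insig1 and Insig2 in set 1, Insig1 in set 3, and Fdft1, Insig1 and Insig2 in 2-g v.s. 1-g, with 0 of the 8 in μ-g v.s. 1-g. At that threshold 1982 of the 19938 genes were higher and 817 lower in set 1, and 1553 and 605 in set 3. The counts were 1057 higher and 1992 lower in 2-g v.s. 1-g, and 273 and 187 in μ-g v.s. 1-g. In directions, all 8 genes were above control in set 1 (median 0.17) and in set 3 (median 0.13), where 61% and 58.4% of all genes were above it. In set 4, 7 of the 8 were higher at μ-g (median 0.21, all genes 0.03), with Insig2 the exception, and in 2-g v.s. 1-g, 7 of the 8 were lower at 2-g (median -0.21, all genes -0.02), again except Insig2. Of all genes 62.8% were higher at μ-g in set 4 and 60.5% lower at 2-g in 2-g v.s. 1-g. In set 2 the 8 genes divided 4 against 4 (median 0.01), with Insig1 turning sign under quantile normalization, and 51.3% of all genes were below control. In μ-g v.s. 1-g the median of the 8 was 0.02. No gene of the 8 changed by 1.5-fold in any comparison.

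**Figure D3:**
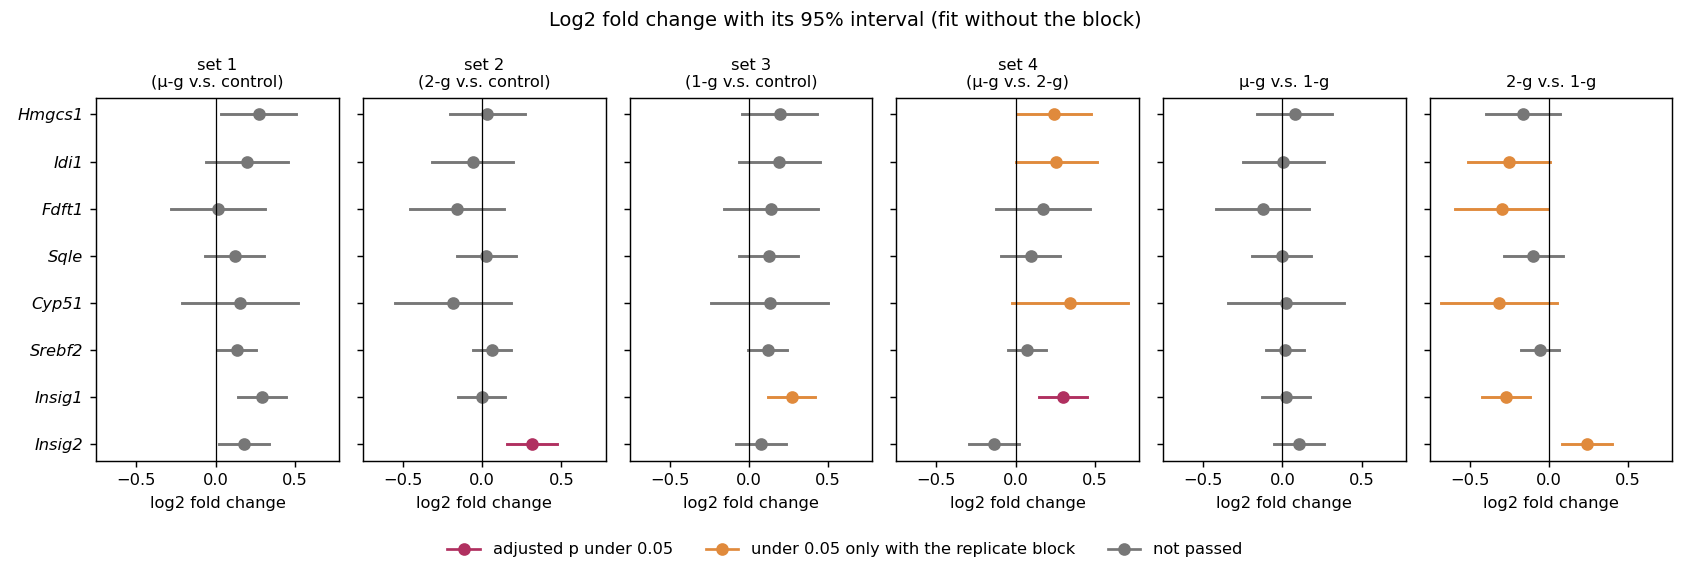
Log2 fold change of each gene (rows) with its 95% interval from the fit without the block, in the 6 comparisons (panels, first-named group over the other). Insig2 in set 2 and Insig1 in set 4 passed at an adjusted p under 0.05, and the differences shown in orange passed only with the replicate number as a block, which is not marked for set 1.

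Much of the spread of these genes within groups followed the replicate number. Replicate 1 was the lowest of its group in 18 of 20 cases for the 5 enzymes and in 27 of 32 for the 8 genes, and in 4 of 4 groups for Hmgcs1, Idi1, Cyp51 and Insig2. The residual SD without and with the block was 0.167 and 0.0534 for Idi1. It was 0.195 and 0.0593 for Fdft1. For Insig1 (0.0876 and 0.0689), Sqle (0.115 and 0.0853) and Srebf2 (0.0618 and 0.0540) the block took away less. What the numbers stand for is not given in the labels, and the cause of the shared shift was not tested.

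With the block the calls of all genes rose as well, so the members are read against that background. In set 4, 4 of the 8 passed, Hmgcs1, Idi1, Cyp51 and Insig1, all higher at μ-g, against 9.18% of all genes. In 2-g v.s. 1-g, 5 of the 8 passed, against 7.57% of all genes, with Idi1, Fdft1, Cyp51 and Insig1 lower at 2-g and Insig2 higher (0.24, adjusted p of limma 0.0129, lost without 1-g replicate 1, 1-g replicate 2 or 2-g replicate 3). In set 2 Insig2 alone of the 8 passed, against 9.38%, in set 3 Insig1 alone, against 1.77%, and in μ-g v.s. 1-g, 0 of the 8, against 0%. Without 1 array the blocked count in set 4 ran from 1 to 5, with 1 without μ-g replicate 1 and 2 without 2-g replicate 1 or 2-g replicate 3. That in 2-g v.s. 1-g ran from 2 to 5, with 2 without 1-g replicate 1, 1-g replicate 3, 2-g replicate 2 or 2-g replicate 3, and 3 without 1-g replicate 2 or 2-g replicate 1.

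**Figure D4:**
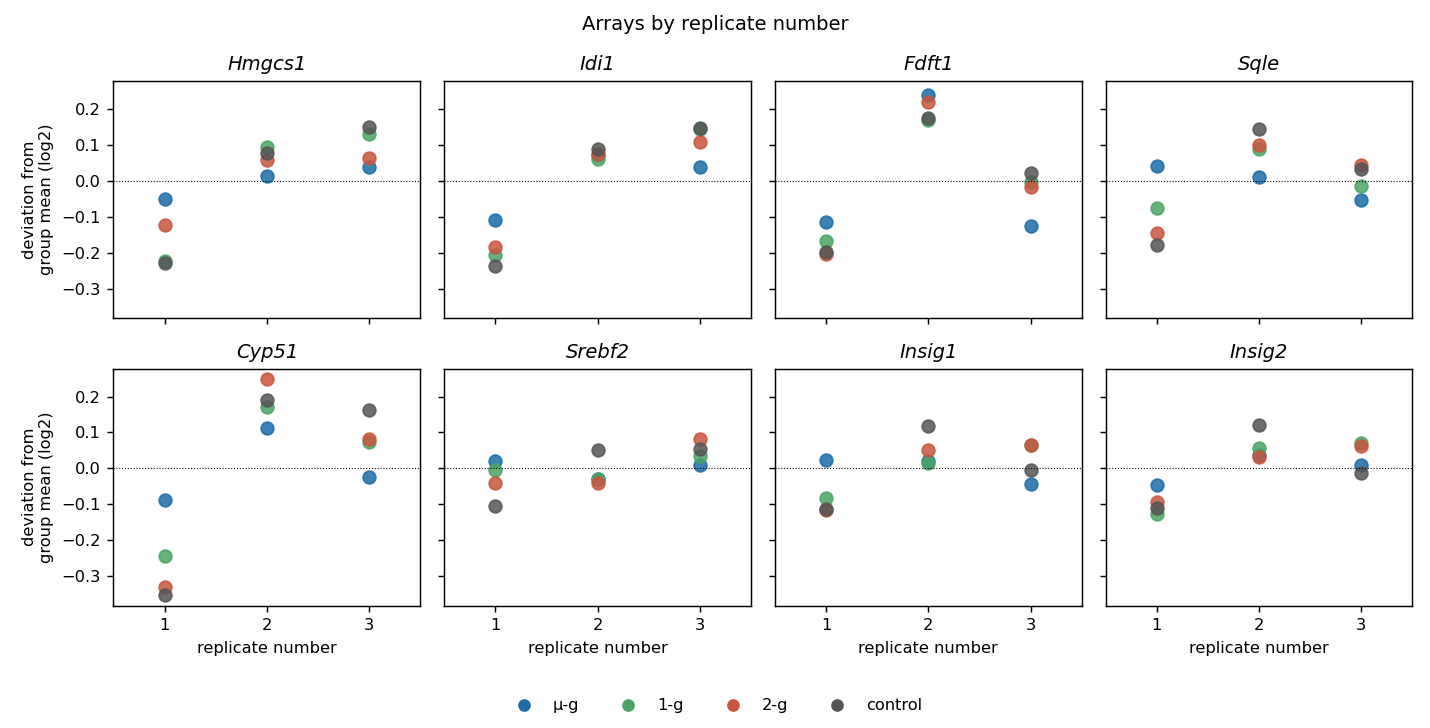
Deviation of each array from the mean of its group (vertical axis, log2) by replicate number (horizontal axis) for the 8 genes, coloured by group (μ-g, 1-g, 2-g, control). Replicate 1 lay lowest in all 4 groups for Hmgcs1, Idi1, Cyp51 and Insig2, and the replicate 2 arrays of Fdft1 lay highest in all 4.

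The same direction ran through the rest of the synthesis pathway. Of a list of 19 enzymes 18 were measured. All 18 were higher at μ-g than at 2-g in set 4 (median 0.23), where 62.8% of all genes were higher, and all 18 were lower at 2-g than at 1-g (median -0.24), where 60.5% of all genes were lower. Of the 18 enzymes 15 were below control at 2-g (median -0.08), where 51.3% of all genes were below it. At μ-g 17 were above control (median 0.15, with 61% of all genes above it), or 16 under quantile normalization. Of the 13 that are not among the 8 genes, 13 were higher at μ-g than at 2-g (median 0.22).
Without the block 1 of the 18 enzymes passed, Hsd17b7, a reductase of the late sterol steps, which was higher at μ-g than at 2-g by 0.42 (SE 0.0846, adjusted p of limma 0.0226) and fell by 0.37 at 2-g against 1-g (adjusted p of limma 0.0444). The other 17 did not pass in any comparison. With the block 8 of 18 passed in set 4, against 9.18% of all genes, and 9 of 18 in 2-g v.s. 1-g, against 7.57%. The enzymes outside the 8 genes that then joined Hsd17b7, named after their values were seen, were Fdps, Msmo1, Sc5d and Dhcr7 in both, and Lss in the second. In set 2 Msmo1 alone of the 18 fell, against 9.38%. No counts of the 18 without 1 array are given. Those of the 8 genes, which share enzymes with this list, fell to 1 in set 4 and 2 in 2-g v.s. 1-g. In those fits the calls of all genes fell too. Of the 4 oxygen-consuming enzymes listed (Sqle, Cyp51, Msmo1 and Sc5d) 0 passed without the block in any comparison, and with it all except Sqle passed in set 4 and in 2-g v.s. 1-g.

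Among regulators of SREBP and INSIG 13 of 14 listed genes were measured, and Rnf145 was the 1 called besides the INSIG pair. Of all genes 3.11% passed in set 2, 2.88% in set 4 and 2.26% in 2-g v.s. 1-g. Rnf145 encodes a sterol-responsive ubiquitin ligase of the endoplasmic reticulum that binds INSIG proteins. Its mean was 10.72 at 2-g, against 10.36 at μ-g, 10.42 at 1-g and 10.45 in control. It rose in set 2 by 0.27 (adjusted p of limma 0.0239), was lower at μ-g than at 2-g by -0.35 in set 4 (0.00511) and was higher at 2-g than at 1-g by 0.30 (0.0160). Scap, Srebf1 and the protease gene Mbtps1 did not pass in any comparison, with or without the block. Spring1, a gene needed for SREBP processing and named after its values were seen, differed by 0.42 in set 4 (adjusted p of limma 0.121, and 0.00368 with the block). With the block it also passed in set 2 (-0.24) and in 2-g v.s. 1-g (-0.43). The blocked shares of all genes were 9.38% in set 2, 9.18% in set 4 and 7.57% in 2-g v.s. 1-g.

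**Figure D5:**
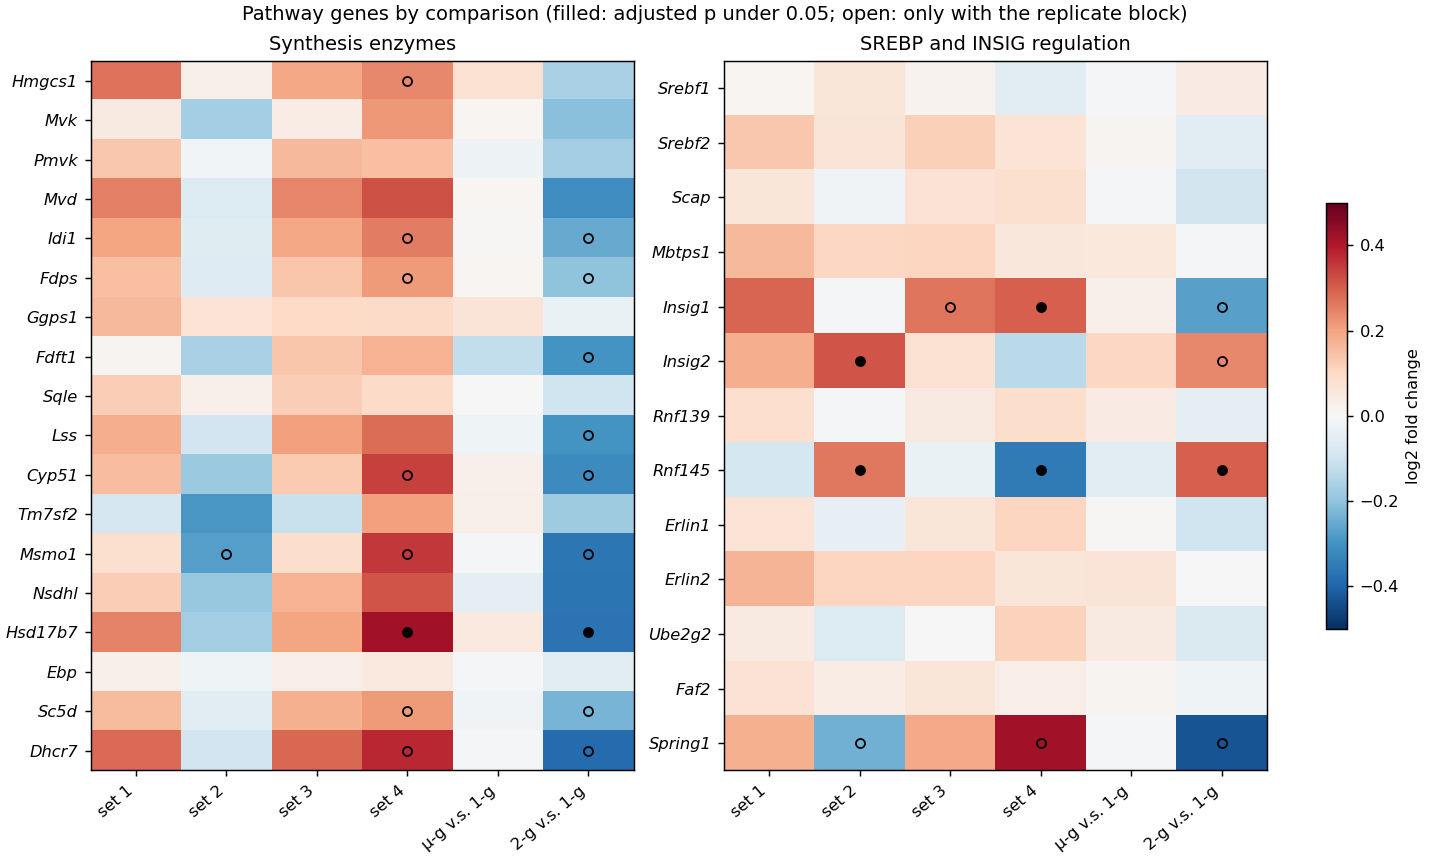
Log2 fold change (colour, red where the first-named group is higher) of the 18 measured synthesis enzymes and 13 regulators (rows) in the 6 comparisons (columns). Filled circles mark an adjusted p under 0.05 and open circles one reached only with the replicate block (not marked for set 1), and all 18 enzymes are red in set 4 and blue in 2-g v.s. 1-g.

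Neighbouring lipid lists were read against the same shares of all genes. Of 14 measured SREBP-1 fatty acid targets (15 listed) 1 rose in set 1, 2 rose and 1 fell in set 2, 1 rose in set 3, 2 were higher at μ-g in set 4 and 2 lower at 2-g in 2-g v.s. 1-g, against 0.823%, 3.11%, 0.321%, 2.88% and 2.26% of all genes in those comparisons. In set 1, 10 of the 14 were higher at an unadjusted p of limma under 0.05, as were 1982 of the 19938 genes. With the block 2 rose in set 3 and 4 were lower in 2-g v.s. 1-g, against 1.77% and 7.57% of all genes with the block. Elovl6, a fatty acid elongase, rose by 0.47 in set 1 (adjusted p of limma 0.0171) and by 0.45 in set 3 (0.0293), and was higher at μ-g than at 2-g by 0.42 (0.00738) and lower at 2-g than at 1-g by -0.41 (0.0107). Mid1ip1, a partner of acetyl-CoA carboxylase, fell by 0.39 in set 2 (adjusted p of limma 0.0209), while Lpin1, a phosphatidate phosphatase, rose there by 0.35 (0.0338) and Acss2, an acetyl-CoA synthetase, by 0.27 (0.0368). Mid1ip1 was higher at μ-g than at 2-g by 0.35 (adjusted p of limma 0.0347) and lower at 2-g than at 1-g by -0.38 (0.0255).
Of 13 genes of sterol uptake and transport 1 passed, the sterol carrier gene Gramd1a, which rose by 0.32 in set 2 (adjusted p of limma 0.0193). With the block the list had 2 that rose in set 2 and 2 in set 3, 2 higher and 2 lower at μ-g in set 4, and 1 higher and 3 lower at 2-g in 2-g v.s. 1-g. The blocked shares of all genes in those comparisons were, in the same order, 9.38%, 1.77%, 9.18% and 7.57%. Of 8 measured genes of sterol efflux, esterification and LXR (10 listed) 1 passed, the cholesteryl ester hydrolase gene Nceh1, higher at μ-g than at 2-g by 0.32 (adjusted p of limma 0.0115) and lower at 2-g than at 1-g by -0.32 (0.0132). With the block 1 of these rose and 1 fell in set 2, 1 rose in set 3 and 2 were lower in 2-g v.s. 1-g. The blocked shares of all genes there were 9.38%, 1.77% and 7.57%.

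The hypoxia reference genes moved in the direction of Insig2 and Rnf145 in set 2 and opposite to the enzymes in set 4. Of 10 such genes 9 rose in set 2 (median 0.95), where 3.11% of all genes passed. All 10 were lower at μ-g than at 2-g in set 4 (median -2.13, 2.88% of all genes) and higher at 2-g than at 1-g (median 2.03, 2.26%). The study had already reported Ak4, Car9, Egln1, Egln3, Pdk1 and Higd1a as changed in these same arrays. The list was thus not chosen blind to its values, and its counts describe a known change. In set 1, 6 fell (median -1.24, 0.823% of all genes passing), and in set 3, 4 fell (median -1.14, 0.321%). In those comparisons Insig2 was 0.18 and 0.07 above control. With the block 7 fell in set 3, against 1.77% of all genes. The part of the hypoxia reference genes in the differences of the 8 genes was not tested.
The markers of the line were mixed, since Gja1 and Pdpn averaged 12.12 and 12.22 on the log2 scale, whereas the osteocyte genes Dmp1, Phex and Mepe averaged 5.63, 5.43 and 5.11. Of 9 osteocyte and osteoblast markers measured Col1a1 was the 1 that passed without the block, with 0.41 in set 2 (adjusted p of limma 0.0177) and 0.38 in 2-g v.s. 1-g (0.0258), and their summed log2 levels ran from 75.40 to 76.01 at μ-g, 75.19 to 75.56 at 1-g, 75.60 to 76.31 at 2-g and 74.68 to 75.65 in control. With the block Alpl also passed in set 2 (adjusted p of limma 0.0119), Gja1 and Col1a1 were lower at μ-g than at 2-g in set 4 (0.0116 and 0.0176), and Gja1 was higher at 2-g than at 1-g (0.0150). Of all genes 3.11% passed in set 2 and 2.26% in 2-g v.s. 1-g without the block. With it 9.38% passed in set 2, 9.18% in set 4 and 7.57% in 2-g v.s. 1-g.
Of 6 macrophage markers 1 passed without the block, Cd68, with 0.55 in set 4 (adjusted p of limma 0.0247) and -0.66 in 2-g v.s. 1-g (0.0116). The defining markers Adgre1, Ptprc and Itgam averaged 5.46, 5.68 and 5.87, whereas Csf1r, Cd14 and Cd68 averaged 7.23, 9.05 and 9.64. Their summed log2 levels ran from 42.96 to 43.24 at μ-g, 42.87 to 43.23 at 1-g, 42.36 to 42.64 at 2-g and 42.83 to 43.34 in control. With the block Cd68 was also lower in set 2 and Csf1r in set 3 (adjusted p of limma 0.0161 and 0.0380). Of 6 adipocyte markers 1 passed without the block, Pparg, with 0.48 in set 4 (adjusted p of limma 0.00508) and -0.52 in 2-g v.s. 1-g (0.00382). Adipoq, Lpl and Plin1 averaged 5.65, 6.55 and 6.94, whereas Cebpa, Pparg and Fabp4 averaged 8.35, 9.92 and 10.73. Their sums ran from 48.03 to 48.55 at μ-g, 48.29 to 48.64 at 1-g, 47.80 to 48.06 at 2-g and 47.51 to 48.06 in control. With the block Pparg also passed in set 2 (-0.18) and set 3 (0.34), and Fabp4 was lower at μ-g in set 4 (-0.36). Of 5 endothelial markers 0 passed in any comparison with or without the block, with sums from 30.66 to 31.30 at μ-g, 30.45 to 31.00 at 1-g, 30.37 to 30.50 at 2-g and 30.62 to 30.90 in control. The part of these cell types in the results was not tested, and the deposited values carry no detection call. Beside these marker counts, 2.88% of all genes passed in set 4 and 2.26% in 2-g v.s. 1-g without the block. The blocked shares were 9.38% in set 2, 1.77% in set 3, 9.18% in set 4 and 7.57% in 2-g v.s. 1-g.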

How the data were processed

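Total RNA of the cells was hybridised to 12 arrays, 3 in each group. The deposited values are log2 intensities that the authors obtained with RMA (version not given in the sources used here), for 28856 transcript clusters, so background correction and summarisation are theirs. Of the clusters 21789 carried 1 symbol, 1621 several and 5446 none. The cluster with the highest mean stood for each of 19938 genes, 999 of which have several. No column was left unused and no arrays were identical. Precision is limited by how few arrays there are.

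limma 3.58.1 under R 4.3.3 fitted group means to the 12 arrays together (lmFit, and eBayes over all clusters, with 8 residual and 3.90 prior degrees of freedom), and p-values were adjusted over the 19938 genes. The fit without the block was run on simulated data with independent noise on each array, which holds no shift by replicate number. The fit with the block was not simulated. The genes and lists were chosen with earlier results of these data known. The text names all 8 genes, at most 4 genes of each list and comparison called without the block, by size of change, the defining markers, and the 5 genes most like Insig2 or the enzyme mean; other genes, such as those that pass only with the block, were chosen after their values were seen. Acat2, Mbtps2, Bglap and Runx2 have no cluster of 1 symbol used here, and some genes that fit the rule are not reported here.

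Whether the replicate numbers of the labels pair the arrays was checked by correlating the deviations of same-numbered arrays from their group means across genes. Every such correlation was over 0.1 in sets 2, 3 and 4, in μ-g v.s. 1-g, and also in 2-g v.s. 1-g (lowest 0.230), and 1 was not in set 1 (0.0179). The pairing thus comes from the data, and values with the replicate number as a block (6 residual degrees of freedom) stand beside the results of those 5 comparisons where they change a call or a count by over 1.5 times. Alternatives were fits to the 6 arrays compared, other scalings, priors, adjustments and clusters, a filter on dim genes, and leaving out each array.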

Additional observations from a re-analysis of the deposited data

How the results depend on the processing

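Counts of called genes among the 8 changed as follows. With only the 6 arrays of the comparison, set 2 and set 4 gave 0 (Insig2 adjusted p of limma 0.0894, Insig1 0.0686), and quantile normalization gave 0 in set 4 (Insig1 0.0523). Of the 19938 genes the 6 arrays gave 151 calls in set 2 and 301 in set 4, and quantile normalization 573 in set 4. With the replicate block the count was 3 in set 1 (Hmgcs1, Idi1 and Insig1, adjusted p of limma 0.0327, 0.0498 and 0.0212), where 4.7% of all genes passed, 1 in set 3, 4 in set 4, 5 in 2-g v.s. 1-g and 6 in the F test, where 11.7% of all genes passed. The blocked shares of all genes in set 3, set 4 and 2-g v.s. 1-g were 1.77%, 9.18% and 7.57%. With genes above the median level the count was 1 in set 1 and 1 in 2-g v.s. 1-g (Insig1, 0.0412 and 0.0362) and 2 in the F test. Under that filter 392 of the 9969 genes kept passed in set 1 and 702 in 2-g v.s. 1-g. Leaving out each array gave 0 to 1 in set 2, in set 4 and in the F test, and 0 to 0 in the other comparisons. Over all genes those fits gave from 145 to 660 calls in set 2 and from 219 to 670 in set 4. Centring on array medians, the trended robust prior, the mean of all clusters and 2 alternatives chosen after seeing the data (adjustment over all clusters, prior from named genes) gave no such change. Over all genes the block moved the calls to 1870 in set 2, against 620 without it, and to 1831 in set 4, against 574.

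Signs turned only in differences that were not called. Quantile normalization gave 0.0065 for Insig1 in set 2 and 0.0001 for Sqle in μ-g v.s. 1-g. Without 1 array, the ranges were, in set 1, Fdft1 from -0.1067 to 0.1007 and Cyp51 from -0.021 to 0.251. In set 2 they were Hmgcs1 from -0.0842 to 0.1063, Idi1 from -0.1784 to 0.0317, Sqle from -0.062 to 0.0993 and Insig1 from -0.0618 to 0.0543. In set 3 it was Cyp51 from -0.0464 to 0.2522. In μ-g v.s. 1-g they were Hmgcs1 from -0.0341 to 0.1437, Idi1 from -0.0979 to 0.0779, Sqle from -0.042 to 0.0412, Cyp51 from -0.0968 to 0.1107, Srebf2 from -5e-04 to 0.0327 and Insig1 from -0.0168 to 0.0567. The causes were not tested. With 3 arrays per group the SE of a difference was 0.0693 for Insig1 and 0.168 for Cyp51, which limits what could be resolved.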

Other observations

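Of all other genes the 5 with the highest Pearson r to Insig2 over the 12 arrays were Il6st (0.958), Lix1l (0.949), Naaa (0.947), Asap1 (0.938) and Fam102b (0.937). Those most like the mean of the 5 enzymes were Unc45a (0.959), Card6 (0.935), Vipas39 (0.928), Cdr2 (0.927) and Gemin8 (0.921). These values describe arrays that share replicate numbers and groups, and carry no test.

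Fdft1 and Idi1 are each read by a second transcript cluster with 1 symbol. The second cluster of Fdft1 had an r of 0.955 with the one used over the 12 arrays and that of Idi1 0.990. In 2-g v.s. 1-g the second cluster of Fdft1 differed by -0.24 (SE 0.143), against -0.30 for the one used. In set 4 the second cluster of Idi1 differed by 0.28 (SE 0.120), against 0.26 for the one used.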
